A study of Mus musculus with 8 samples.

Results

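Mgll and 8 other genes of the endocannabinoid system were examined in RNA sequencing of mouse testes, 9 of the 54532 genes in the deposited table. They were chosen from results of this same contrast, Mgll for its lower level in the conditional knockout and the others by name for their role: Mgll, Abhd6 and Abhd12 degrade 2-arachidonoylglycerol (2-AG), Faah degrades anandamide, Napepld and Daglb make the 2 lipids, Abhd2 is a related lipase, and Cnr1 and Cnr2 are the receptors. The measured difference between the groups therefore chose the list, and it is given for these 9 genes as a description, with no test. Whole testes of juvenile C57BL/6J mice were compared, 4 Sync-Spdya fl/fl mice (here Ctrl 1 to Ctrl 4) with 4 Sync-Spdya cKO mice (cKO 1 to cKO 4), with 1 library per mouse. In all 8 mice spermatogenesis had been synchronized by an inhibitor of retinoic acid (RA) synthesis followed by RA, and all carried both floxed Spdya alleles. All received tamoxifen, at RA7.5 and RA8.5 by the sample labels (days after the RA injection), and the testes were taken at RA11.5, when most germ cells are pachytene spermatocytes. The Sync-Spdya cKO mice alone carried Ddx4-CreERT2, a germ cell Cre that tamoxifen activates and that removes exon 2 of Spdya, the gene of a cyclin-dependent kinase activator. The controls had no Cre, so the presence of Cre and the loss of exon 2 cannot be told apart in this comparison.

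Endocannabinoids are lipids made on demand from membrane phospholipids. Diacylglycerol lipases release 2-AG, and monoacylglycerol lipase, the product of Mgll, splits it into arachidonic acid and glycerol. Anandamide, an N-acylethanolamine, is released from its phospholipid precursor by the product of Napepld and is split by the product of Faah. Both lipids act on the cannabinoid receptors, and in the testis this system is known from studies of germ cells, Sertoli cells and sperm. Abhd2 acts in sperm, where it hydrolyses 2-AG in response to progesterone.

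The values are FPKM, in which the fragments of a gene are divided by its length in kilobases and by a scaled library size. Levels of different genes can therefore be set side by side, with a limit. For the 9 genes the length is that of all annotated exons joined. A gene whose transcripts in use are shorter thus gets too low a value. Orders, shares and ratios between genes carry this limit. The fragments counted on genes, recovered from FPKM and gene length, ranged from 13978342 to 19583091 per library. Ctrl 1 stood apart, with 0.464% of its fragments on mitochondrial genes where the other 7 libraries had 2.20 to 3.74%. Log2 fold changes and marker differences that moved by over 1.5 times without this library are given without it too. Spdya itself had 20.8, 21.0, 23.8 and 19.7 FPKM in Ctrl 1 to 4 and 30.5, 22.2, 26.1 and 17.7 FPKM in cKO 1 to 4. Loss of 1 exon need not lower the level of the whole gene, so these values do not check the labels. The test was limma on log2(FPKM + 0.1), and it took in 12141 protein-coding genes whose mean was above 1 FPKM in each group. Calls needed a p below 0.05 after Benjamini-Hochberg adjustment together with a log2 fold change (cKO minus Ctrl) above 1 or below -1. The pseudocount makes fold changes of low genes smaller than they are.

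By these rules 2 genes, or 0.0165% of those tested, were called, both lower in the cKO libraries: Ccdc42, a coiled-coil gene needed in sperm development, and 5330417C22Rik. These 2 are named after their values were seen. Of the 9 endocannabinoid genes 7 passed the filter and 0 were called. All 7 that passed had a mean above 1 FPKM in each group, and Cnr1 and Cnr2 were below it in both. At an unadjusted p below 0.05, 715 genes (5.89%) were higher and 607 (5.0%) lower in the cKO libraries. After each library was rescaled to TPM, that is to the same sum of length-scaled values, the split was 907 higher and 360 lower. The 4 values of one group lay entirely above or below those of the other in 442 genes (3.64%) that were higher and 315 (2.59%) that were lower in the cKO libraries. Of the 7 endocannabinoid genes tested, Mgll alone had no overlap between the groups. Nothing is read from that count, since the contrast chose Mgll.

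Mgll (ENSMUSG00000033174) lies on the plus strand of chromosome 6 of GRCm38, from 88724412 to 88828360. Its exons, joined over 10 annotated transcripts of which 6 are protein-coding, cover 5077 bases, the length used for its FPKM. Only 167 of these bases are also exonic in a gene of the other strand, Gm26588, whose mean level was 0.0275 FPKM. The RefSeq sequence of the 250 bases before the upstream of its start sites (GRCm38.p6, chr6:88724162-88724411, plus strand) is shown as a description. Any part it has in the level of Mgll was not tested. Capitals mark the matches to the motifs searched:

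Mgll upstream window: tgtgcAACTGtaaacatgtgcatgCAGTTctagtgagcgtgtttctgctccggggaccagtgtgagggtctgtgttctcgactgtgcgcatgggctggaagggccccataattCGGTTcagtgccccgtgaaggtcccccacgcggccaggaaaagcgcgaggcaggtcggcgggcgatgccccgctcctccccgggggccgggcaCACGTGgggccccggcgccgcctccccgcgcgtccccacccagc

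The window is 68.0% G and C, against a median of 52.4% over 32851 windows of the same length. It holds 3 matches to AACNG, the core letters bound by MYB proteins, of which Mybl1 is the member known for pachytene spermatocytes. These begin 245, 226 and 137 bases before the start, the first on the plus and the others on the minus strand. Such a match is common, being present in 74.2% of all windows on either strand. CACGTG, an E-box that reads the same on both strands, begins 44 bases before the start and is present in 6.02% of windows. The window held no match on either strand to the TATA box letters TATAAA, present in 12.4% of windows, or to the CCAAT box, present in 33.8%. It also held none to the GC box letters GGGCGG (32.7% of windows) or to the cAMP response letters TGACGTCA (1.55%). A second RefSeq window of Mgll, beginning at 88724454, held 1 match to GGGCGG, 1 to AACNG and none to the other motifs. These are matches of letters and not sites of binding, and in the window shown none overlapped another.

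Mgll measured 12.9, 12.4, 17.7 and 9.50 FPKM in Ctrl 1 to 4 and 5.34, 8.02, 4.03 and 5.14 FPKM in cKO 1 to 4. Every cKO library was below every control, with 9.50 FPKM in the lowest control against 8.02 FPKM in the highest cKO library. The group means were 13.1 ± 3.41 FPKM (SD, n = 4) and 5.63 ± 1.69 FPKM (SD, n = 4), so that the cKO mean was 42.9% of the control mean. The log2 fold change was -1.22 (standard error 0.23), the 15th lowest of the 12141 genes tested. It rested on 345 to 1406 fragments per library. At these numbers the 95% counting intervals of the 2 nearest libraries, 8.84 to 10.2 FPKM in Ctrl 4 and 7.41 to 8.66 FPKM in cKO 2, did not meet. These exact Poisson intervals cover counting error only. Within a group they could also lie apart, as did Ctrl 3, at 16.8 to 18.7 FPKM, and Ctrl 4, so nothing is read from the gap. Without Ctrl 1 the log2 fold change was -1.21, and with each library left out in turn it lay between -1.40 and -1.06. In whole testes, fewer cells that express a gene and less RNA per cell cannot be told apart.

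**Figure D1:**
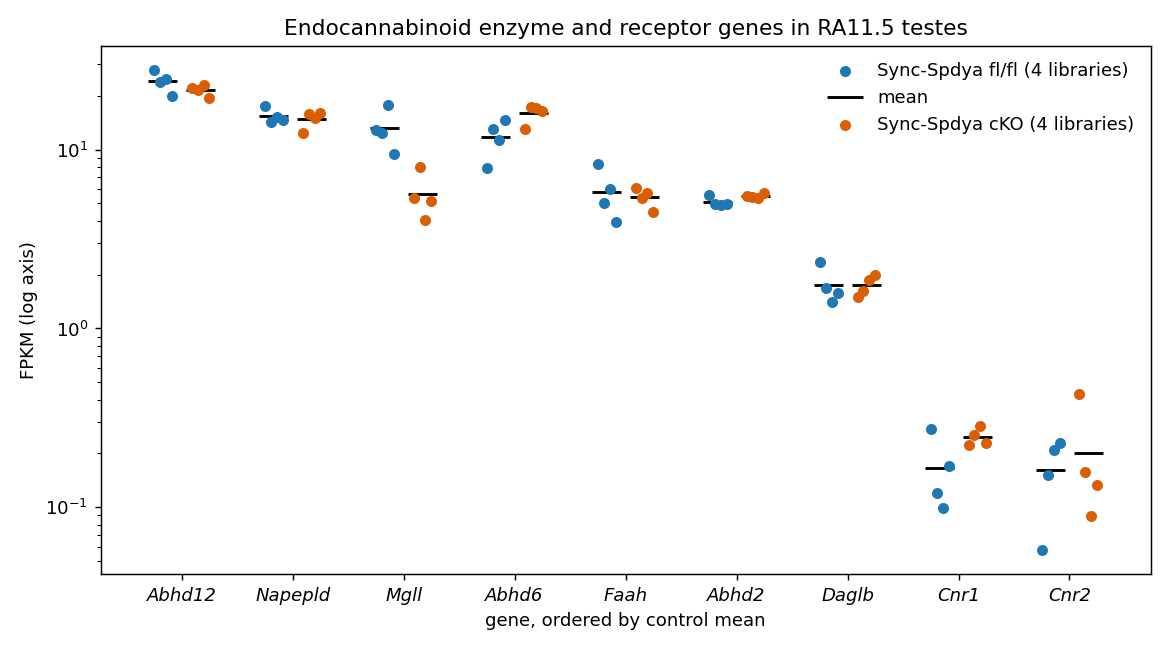
FPKM (log axis) of the 9 genes in each library, ordered by the control mean, with 1 point per library and a black line at each group mean (4 libraries each). The control points of Mgll lie between 9.50 and 17.7 FPKM and its cKO points between 4.03 and 8.02 FPKM, while the groups overlap in the other 8 genes.

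Abhd6 and Abhd12 encode 2 further serine hydrolases known to split 2-AG. Abhd6 (ENSMUSG00000025277, chromosome 14, 8002902 to 8056763, plus strand) measured 7.87, 13.1, 11.3 and 14.6 FPKM in the controls and 13.1, 17.3, 17.2 and 16.4 FPKM in the cKO libraries. Its groups overlapped, cKO 1 lying among the controls, and Ctrl 1 was the lowest library. The means were 11.7 ± 2.91 and 15.98 ± 1.94 FPKM (SD, n = 4 each), with a log2 fold change of 0.47 (standard error 0.18). Without Ctrl 1 it was 0.29 (standard error 0.13), smaller by over 1.5 times.

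Abhd12 (ENSMUSG00000032046, chromosome 2, 150832493 to 150904741, minus strand) had the highest level of the 9 genes in all 8 libraries. It measured 27.9, 23.9, 25 and 19.99 FPKM in the controls and 22.3, 21.5, 23.1 and 19.6 FPKM in the cKO libraries. The groups overlapped, and the log2 fold change was -0.15 (standard error 0.11), and -0.08 without Ctrl 1, the highest library.

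Taking Mgll, Abhd6 and Abhd12 together, their summed level was 49.1 ± 4.05 FPKM in the controls and 43.2 ± 2.89 FPKM in the cKO libraries (SD, n = 4 each). Abhd2, which hydrolyses 2-AG in sperm, was left out of this sum, so the shares below are of these 3 genes only. Mgll made up 26.5, 25.1, 32.8 and 21.5% of this sum in Ctrl 1 to 4 and 13.1, 17.1, 9.09 and 12.5% in cKO 1 to 4. The 2 ranges did not meet. Abhd6 made up 16.2 to 33.2% in the controls and 32.2 to 39.9% in the cKO libraries, and Abhd12 45.3 to 57.3% and 46.0 to 54.6%. Mgll was above Abhd6 in 2 of the 4 controls, by ratios of 1.64 and 1.57, and below it in the other two, at 0.948 and 0.649. In the cKO libraries it was below Abhd6 in all 4, at ratios of 0.235 to 0.464. These shares count transcripts per length and are not enzyme activities.

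**Figure D2:**
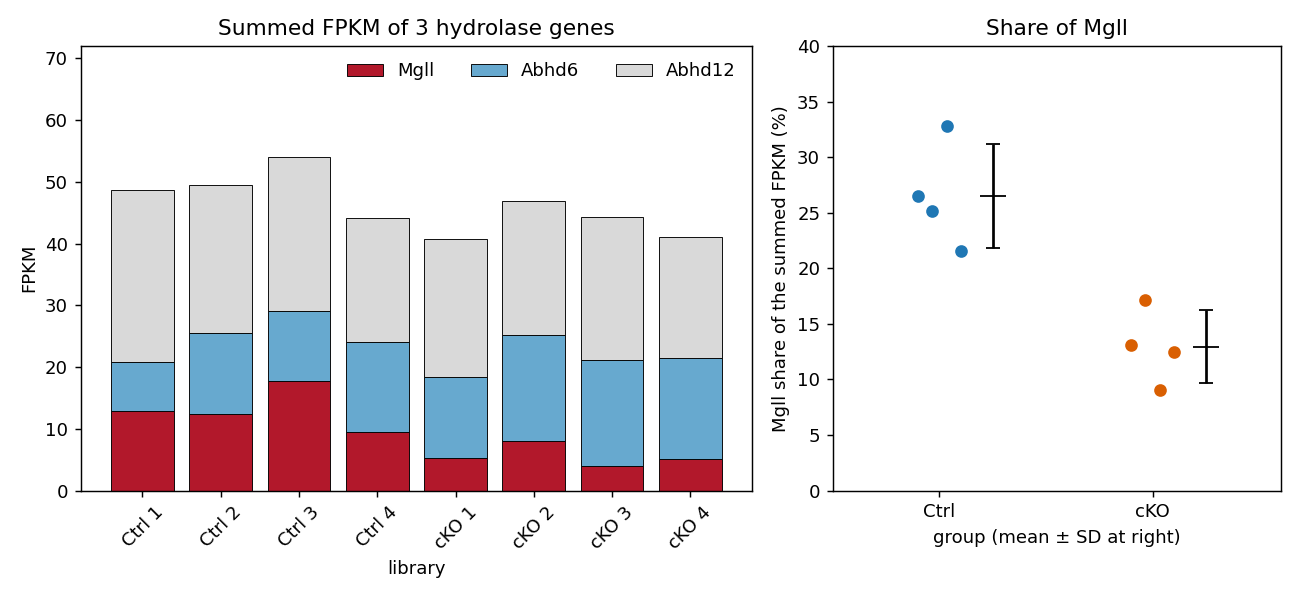
Left, summed FPKM of Mgll, Abhd6 and Abhd12 in each library, stacked from 0; right, the share of Mgll in that sum (%), with 1 point per library and the mean ± SD of 4 libraries beside them. The Mgll share is 21.5 to 32.8% in the controls and 9.09 to 17.1% in the cKO libraries.

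On the side of 2-AG synthesis, Daglb (ENSMUSG00000039206, chromosome 5, 143464584 to 143505942, plus strand), a diacylglycerol lipase, was the lowest of the 7 genes tested in every library. It measured 2.35, 1.68, 1.4 and 1.58 FPKM in the controls and 1.5, 1.62, 1.86 and 2.00 FPKM in the cKO libraries, with a log2 fold change of 0.01 (standard error 0.19) that became 0.16 without Ctrl 1. Its level is uncertain, because 2309 of its 9567 exon bases are also exonic in Rac1 on the other strand, which had a mean of 27.4 FPKM, and the use of strand in counting is not stated. With that limit, the ratio of Mgll to Daglb was 5.49 to 12.6 in the controls and 2.17 to 4.94 in the cKO libraries.

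The pair of genes that makes and breaks anandamide showed overlapping groups. Napepld (ENSMUSG00000044968, chromosome 5, 21662901 to 21701396, minus strand), the phospholipase D that releases N-acylethanolamines, measured 17.6, 14.4, 15.3 and 14.6 FPKM in the controls and 12.4, 15.9, 15.1 and 16.1 FPKM in the cKO libraries. This was a log2 fold change of -0.06 (standard error 0.11), or 0.01 without Ctrl 1. Faah (ENSMUSG00000034171, chromosome 4, 115967145 to 116017926, minus strand), the fatty acid amide hydrolase, measured 8.35, 5.01, 5.99 and 3.96 FPKM in the controls and 6.10, 5.40, 5.71 and 4.47 FPKM in the cKO libraries. Here too the log2 fold change was -0.06 (standard error 0.21), but it was 0.13 without Ctrl 1, the highest library.

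Abhd2 (ENSMUSG00000039202, chromosome 7, 79273199 to 79365508, plus strand), the 2-AG hydrolase of sperm, varied least of the 9 genes relative to its mean. It measured 5.54, 4.95, 4.89 and 4.95 FPKM in the controls and 5.50, 5.43, 5.37 and 5.70 FPKM in the cKO libraries. Ctrl 1 alone made the groups overlap. The log2 fold change was 0.11 (standard error 0.10) with it and 0.16 (standard error 0.09) without it, in which case all 4 cKO libraries were above the 3 controls. Without Ctrl 1, 1011 of the 12141 genes tested were higher without overlap, against 442 with it, so nothing is read from this.

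The cannabinoid receptors were barely detected. Cnr1 (ENSMUSG00000044288, chromosome 4, 33924593 to 33948831, plus strand) measured 0.272, 0.120, 0.0993 and 0.170 FPKM in the controls and 0.224, 0.253, 0.285 and 0.228 FPKM in the cKO libraries, from 10 to 31 fragments per library. Cnr2 (ENSMUSG00000062585, chromosome 4, 135895394 to 135920207, plus strand) measured 0.0575, 0.152, 0.209 and 0.230 FPKM in the controls and 0.427, 0.157, 0.0894 and 0.133 FPKM in the cKO libraries, from 3 to 33 fragments. The groups overlapped in both genes. In Cnr1 Ctrl 1 alone made them overlap, since the other controls had at most 0.170 FPKM and the cKO libraries at least 0.224 FPKM. The log2 fold change of Cnr1 was 0.43 with all libraries and 0.61 without Ctrl 1, and that of Cnr2 was 0.14 and -0.09. These rest on few fragments, and neither gene passed the filter.

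Ordered by mean level, the controls ran from Abhd12 through Napepld, Mgll, Abhd6, Faah, Abhd2 and Daglb to Cnr1 and Cnr2. The ranges over the 4 libraries overlapped between neighbours from Napepld to Abhd2 and between the receptors, so that only the steps below Abhd12, above Daglb and below Daglb separated. In the cKO libraries the order was Abhd12, Abhd6, Napepld, Mgll, Abhd2, Faah, Daglb, Cnr1 and Cnr2. There Mgll lay clear of Napepld, with 8.02 FPKM in its highest library against 12.4 FPKM in the lowest of Napepld, and its range overlapped those of Abhd2 and Faah. Within single libraries Mgll held rank 3, 4, 2 and 4 of the 9 genes in Ctrl 1 to 4 and rank 6, 4, 6 and 5 in cKO 1 to 4.

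The other genes of these pathways were taken from 7 lists by role, 81 genes in all with each counted once, of which 50 passed the filter. Of these 0 were called. At an unadjusted p below 0.05, 5 were higher and 1 was lower in the cKO libraries, and the groups did not overlap in 3 that were higher and 1 that was lower. The shares over all genes tested were 5.89 and 5.0% at that p, and 3.64 and 2.59% without overlap. The median log2 fold change of the 50 genes was 0.06, beside 0.01 over all 12141 genes tested. Values of single genes below are from limma, with p adjusted over all genes tested, and none of those named passed the threshold.

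Among the 7 genes of 2-AG and diacylglycerol supply, 5 were tested, 0 were called and 0 had an unadjusted p below 0.05. Dagla, the second diacylglycerol lipase, had means of 3.98 and 3.90 FPKM in the controls and cKO libraries. The 3 with the largest log2 fold changes were the phospholipase C genes Plcb4 at 0.20, Plcg1 at 0.10 and Plcg2 at 0.05, which release diacylglycerol from phosphoinositides. Without Ctrl 1 Plcb4 was at 0.06 and Plcg1 at 0.15.

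Of the 8 genes of N-acylethanolamine synthesis, 7 were tested and 0 were called. The exception in size was Hrasls5, an N-acyltransferase that makes the phospholipid precursor on which Napepld acts. It measured 11.0, 14.2, 24.2 and 11.4 FPKM in the controls and 7.62, 9.21, 4.8 and 5.31 FPKM in the cKO libraries. The groups did not overlap, although they did after rescaling to TPM. This gave a log2 fold change of -1.13, with a standard error of 0.28 (limma adjusted p = 0.178). The adjusted p ranged from 0.0320 to 0.580 over the alternatives tried, below 0.05 only with limma's array weights. Pla2g16 at 0.32 and Gdpd3 at 0.29 were the next largest, and Abhd4, a lipase of the same precursor, had a high level with means of 91.5 and 108 FPKM.

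Among the 6 genes of other endocannabinoid breakdown and binding, 2 were tested and 0 were called. Fabp5, a fatty acid binding protein that carries anandamide in the cell, had means of 9.11 ± 3.01 and 13.5 ± 1.48 FPKM (SD, n = 4 each), with overlapping groups and a log2 fold change of 0.62 (limma adjusted p = 0.372). Without Ctrl 1, its lowest library at 5.35 FPKM, this was 0.39. Naaa, an acid amidase of N-acylethanolamines, had a log2 fold change of 0.06, and 0.01 without Ctrl 1. Ptgs2, Ces1d, Fabp7 and Cnrip1 did not pass the filter, with means of at most 0.271 FPKM over all libraries. Of the 6 other receptors that respond to cannabinoids, Gpr55 alone was tested, with means of 4.88 and 5.48 FPKM and a log2 fold change of 0.19 (limma adjusted p = 0.803), which was -0.0042 without Ctrl 1. Gpr18, Gpr119, Trpv1, Ppara and Pparg did not pass the filter.

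In the list of neutral lipid synthesis and lipolysis, to which Mgll is tied as the last step in breaking down triglycerides, 16 of 23 genes were tested and 0 were called. Agpat2, an acyltransferase of phosphatidic acid synthesis, had means of 1.20 ± 0.191 and 1.98 ± 0.372 FPKM (SD, n = 4 each) without overlap, and a log2 fold change of 0.68 (limma adjusted p = 0.229). Plin3, a lipid droplet coat protein, had a log2 fold change of 0.52 (limma adjusted p = 0.287), and the lysosomal lipase Lipa one of 0.27 (0.13 without Ctrl 1). The lipases that act before Mgll gave small values, with log2 fold changes of -0.22 for Pnpla2 (adipose triglyceride lipase) and 0.04 for Lipe (hormone-sensitive lipase), which was at 0.12 without Ctrl 1.

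Of 18 other genes of the ABHD hydrolase family, 14 were tested and 0 were called, 7 with a log2 fold change above and 7 below 0. The values furthest from 0 were -0.43 for Abhd8, -0.31 for Abhd17b, a depalmitoylating enzyme, and 0.25 for Abhd11, a mitochondrial hydrolase. The first 2 rested on Ctrl 1, which had 83.2 FPKM of Abhd8 and 30.4 FPKM of Abhd17b, the highest value of each. Without it they were at -0.17 and -0.12, nearer to 0 than Abhd11 at 0.24. Abhd11 alone had groups without overlap, at 11.1 to 13.81 FPKM in the controls and 13.84 to 14.6 FPKM in the cKO libraries. These ranges nearly touched, and 3.64% of all genes tested were higher without overlap, so nothing is read from it.

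Of 16 arachidonate and eicosanoid genes, on the path that takes up the arachidonic acid released from 2-AG, 7 were tested and 0 were called. Ptgds, a prostaglandin D synthase, measured 1.06, 1.84, 1.51 and 0.555 FPKM in the controls and 3.32, 3.38, 4.14 and 3.64 FPKM in the cKO libraries. The groups did not overlap, with a log2 fold change of 1.58 and a standard error of 0.30 (limma adjusted p = 0.127). Its adjusted p ranged from 0.0210 to 0.465 over the alternatives tried, below 0.05 only with array weights. Pla2g4a, the cytosolic phospholipase A2, had a log2 fold change of 0.32 and Ptges3, a prostaglandin E synthase, one of -0.14 (-0.05 without Ctrl 1). The cyclooxygenase genes Ptgs1 and Ptgs2 did not pass the filter.

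**Figure D3:**
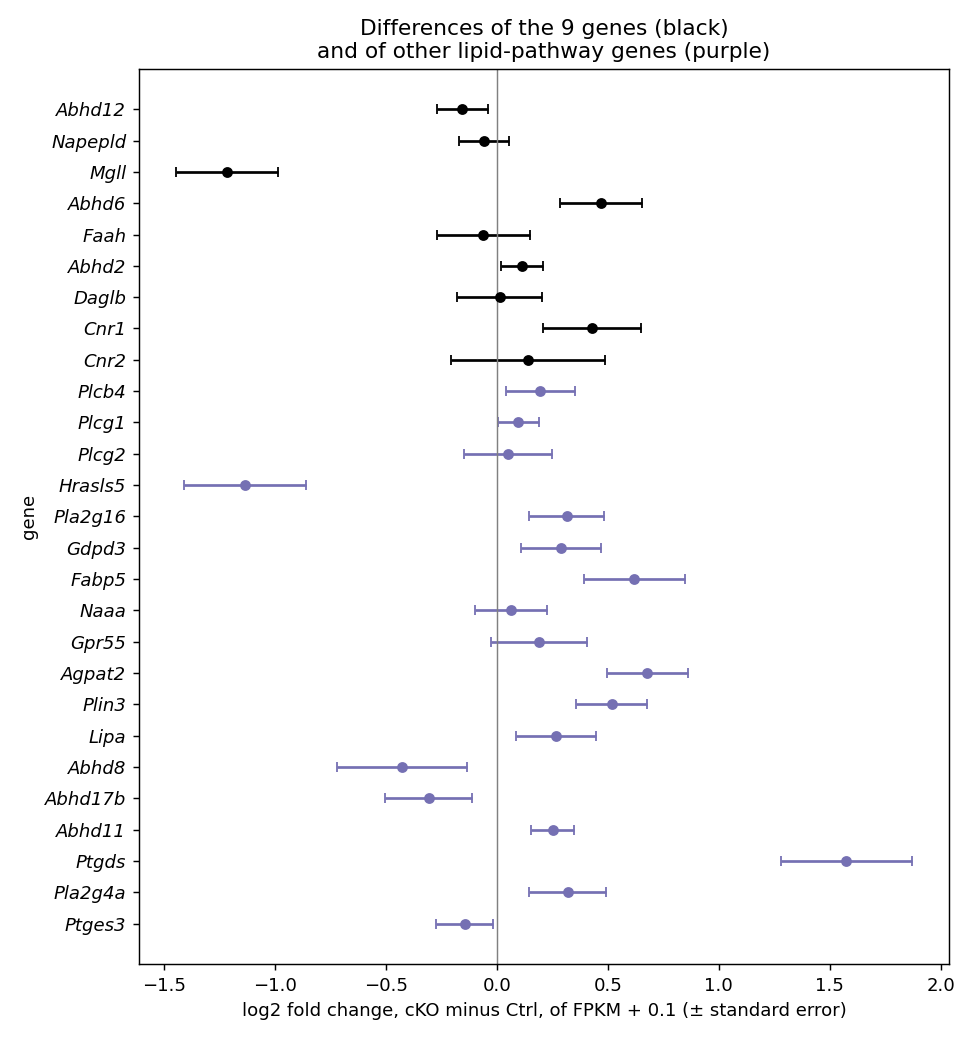
Log2 fold change (cKO minus Ctrl, FPKM + 0.1) with its standard error for the 9 genes (black, by control mean) and the genes with the largest changes in each pathway list (purple), from 4 libraries per group. Mgll at -1.22 and Hrasls5 at -1.13 lie furthest below 0, and Ptgds at 1.58 furthest above it.

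The likeness of other genes to Mgll was measured as Pearson's r of log2(FPKM + 0.1) over the 8 libraries, among the 12140 other genes tested. All points share the same 8 libraries and the difference between the groups that chose Mgll, so r is a description. The 5 genes most like it were Galnt3 (r = 0.988), Tekt2 (0.978), Rimbp3 (0.971), Thegl (0.970) and Iqcd (0.970). Galnt3, which starts mucin-type O-glycosylation, measured 7.01, 6.73, 9.67 and 5.41 FPKM in the controls and 3.09, 3.94, 2.52 and 2.52 FPKM in the cKO libraries, a log2 fold change of -1.22. Tekt2, a tektin of the sperm flagellum, had a log2 fold change of -0.85, Rimbp3, of the spermatid manchette, one of -0.89, Thegl one of -1.02 and Iqcd one of -0.76. The groups did not overlap in any of these 5 genes, against 2.59% of all genes tested that were lower without overlap. Their choice by likeness to Mgll made this nearly certain, so nothing is read from it.

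With each group's mean taken away, which leaves only the differences among mice of a group, the 5 most like Mgll were E2f4 (r = 0.969), Galnt3 (0.953), Cep164 (0.945), Atp7b (0.924) and Nr1h3 (0.913). Galnt3 was thus the only gene in both sets of 5. Its high values in Ctrl 3 and cKO 2 fell in the same libraries as those of Mgll. E2f4, a transcription factor, Atp7b, a copper transporter, and Nr1h3, the liver X receptor alpha, had log2 fold changes of -0.12, -0.22 and -0.23, and Cep164, a ciliary gene, one of -0.30.

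Of the pathway genes, Hrasls5 was like Mgll by both measures, with r = 0.953 over the 8 libraries (rank 20 of 12140) and r = 0.865 within groups (rank 17). Among the endocannabinoid genes r over the 8 libraries was 0.553 for Abhd12, 0.284 for Napepld, 0.240 for Faah, -0.169 for Daglb, -0.639 for Abhd2 and -0.663 for Abhd6. Within groups these values lay between -0.297 for Daglb and 0.317 for Faah.

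**Figure D4:**
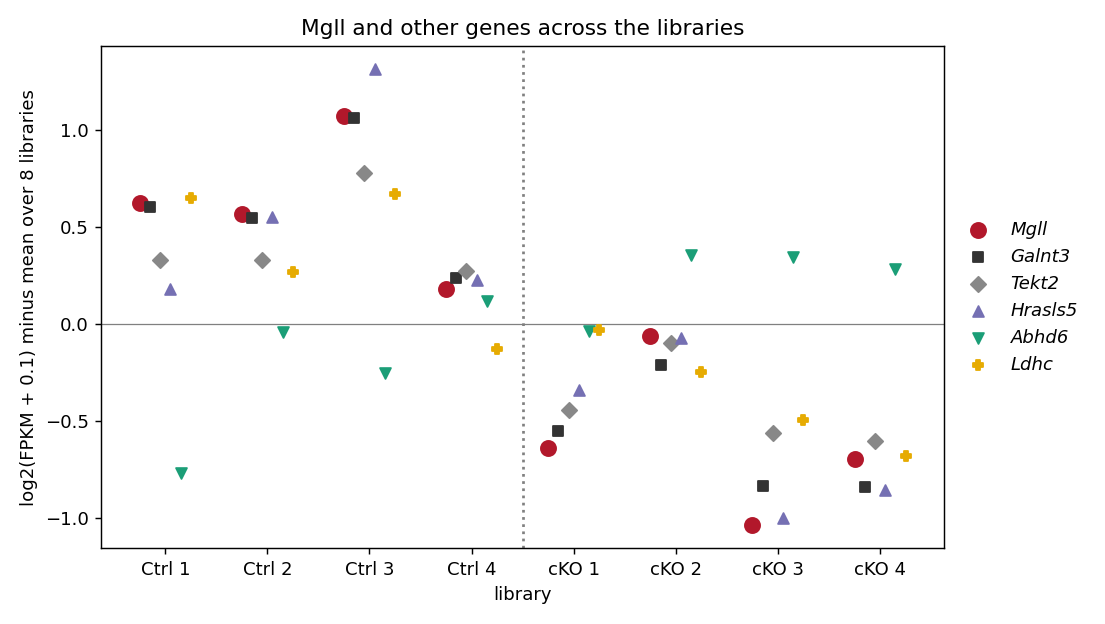
Level of 6 genes in each library as log2(FPKM + 0.1) minus the gene's mean over the 8 libraries, with controls left and cKO libraries right of the dotted line. Galnt3 lies closest to Mgll (r = 0.988), Hrasls5 (r = 0.953) and the pachytene marker Ldhc (r = 0.879) vary with it, and Abhd6 (r = -0.663) goes the other way. Ldhc has the highest r of the 9 pachytene markers tested.

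Markers of the cells of the testis were set beside these values. The labelled tissue was borne out by its markers, with the summed level of the 10 pachytene spermatocyte markers at 1551 to 2349 FPKM in the controls and 1329 to 2014 FPKM in the cKO libraries. The 10 spermatid markers summed to only 3.98 to 11.5 and 5.97 to 8.16 FPKM, with Catsper1 at 0 in all libraries and 5 of the 10 above a mean of 0.1 FPKM. The mean log2 level of the pachytene list differed by -0.14 between the groups (exact permutation p = 0.457, two-sided). It was -0.09 without Ctrl 1, and single libraries left out gave -0.24 to -0.026. Of its genes 9 were tested and all 9 had a log2 fold change below 0, with a median of -0.20. Without Ctrl 1, 8 of the 9 were below 0 and the median was -0.12. The tenth, Hist1h1t, a testis linker histone that did not pass the filter, had the opposite sign at 0.96, with 0.210 to 0.335 FPKM in the controls and 0.323 to 0.893 FPKM in the cKO libraries. Despite this low level it entered the list mean with the same weight as each other gene, and so raised the difference of -0.14. Ldhc, a germ cell lactate dehydrogenase, was at -0.73 and Piwil1, a piRNA-binding protein of pachytene cells, at -0.40, both with overlapping groups and an unadjusted p below 0.05. Over the 8 libraries r with Mgll was 0.879 for Ldhc and 0.802 for Piwil1. These were the highest values of the 9 tested markers, of which the lowest was 0.184. For the mean of the whole list r was 0.450, and 0.355 within groups. Relative to the mean pachytene level of its own library, the log2 level of Mgll was -2.16 ± 0.23 in the controls and -3.24 ± 0.47 in the cKO libraries (SD, n = 4 each), a difference of -1.08 without overlap. This difference is a description only, since the contrast chose Mgll, and the mean taken away includes Hist1h1t.

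Marker lists of interstitial cells had higher means in the cKO libraries. None passed after adjustment, but with 4 against 4 libraries a single list could not have passed, however far apart its groups. The 6 macrophage markers differed by 0.48 in mean log2 level, with all 4 cKO libraries above the controls (exact permutation p = 0.0286, the smallest that 4 against 4 allows, and 0.229 after Benjamini-Hochberg adjustment over the 8 marker lists). Their summed level was 17.5 to 28.7 FPKM in the controls and 28.1 to 35.8 FPKM in the cKO libraries. The 7 Leydig cell markers differed by 0.61 (exact permutation p = 0.0571) and summed to 35.9 to 57.6 and 51.6 to 72.2 FPKM, and the 5 endothelial markers by 0.51 (exact permutation p = 0.114), at 5.15 to 12.7 and 11.6 to 14.8 FPKM. Peritubular myoid markers differed by 0.21, Sertoli cell markers by 0.13, spermatid markers by -0.16 and spermatogonial markers by -0.05, each with an exact permutation p of 0.257 or more. Of the 8 spermatogonial markers, however, 6 had a log2 fold change above 0 and 2 below it, with a median of 0.12, and Stra8 was at -1.46. The Sertoli value was 0.22 without Ctrl 1, and the endothelial one 0.34. Over the 8 libraries Mgll had r = -0.822 with the macrophage list, -0.792 with the Leydig list and -0.748 with the endothelial list. Within groups the values were -0.425, -0.429 and -0.525. In single cells from pooled testes taken slightly later, the paper reports a smaller share of spermatocytes and a larger share of spermatogonia in the cKO. The part of cell makeup in the Mgll values was not tested.

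**Figure D5:**
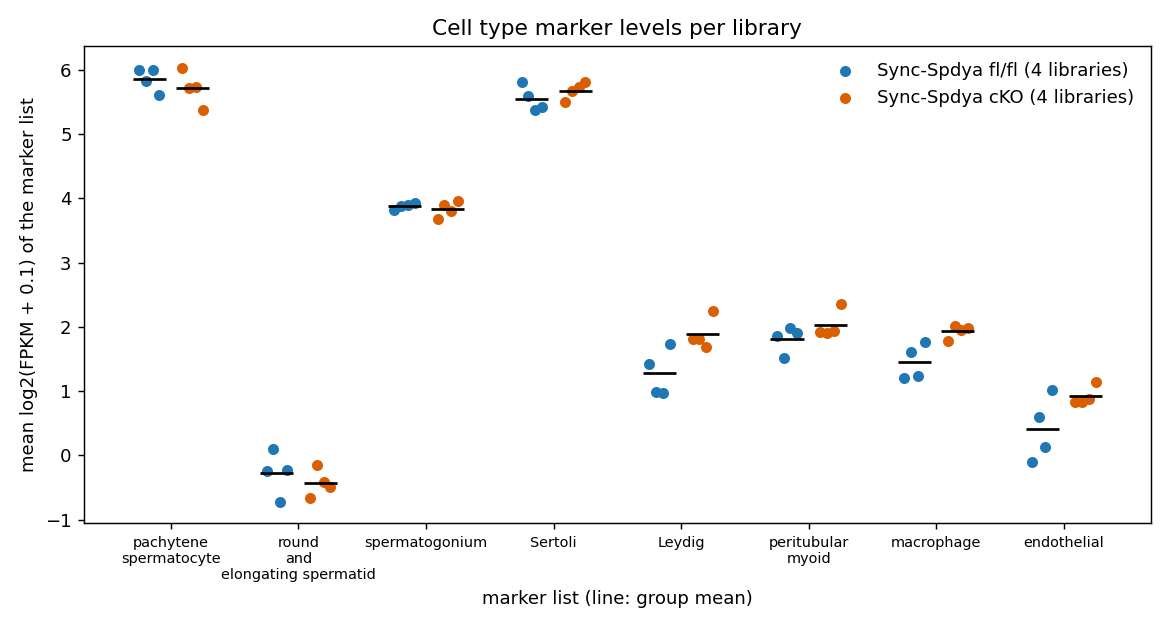
Mean log2(FPKM + 0.1) of 8 cell type marker lists, with 1 point per library and a line at each group mean (4 libraries each). The macrophage list alone shows no overlap between the groups. The pachytene list overlaps, with a difference of -0.14. This includes Hist1h1t, at a log2 fold change of 0.96, while the 9 tested genes of the list are all below 0.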

How the data were processed

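RNA of whole testes was sequenced from 8 mice, 4 Sync-Spdya fl/fl controls and 4 Sync-Spdya cKO, grouped by their sample titles. The authors deposited FPKM values for 54532 genes, made with a sequencing company's software, together with gene lengths. The aligner, the counting tool and the use of strand are not given in the sources used here. The submitters' processing notes name GRCm38 (mm10), and 98.3% of the genes found in GENCODE vM21 had the same start and end there. The paper and the labels differ on the times of tamoxifen and on the RNA kit.

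FPKM multiplied by length gave whole fragments for 100% of values above 0 (tolerance 0.02). The library scaling is part of the deposited values. limma 3.58.1 in R 4.3.3 (lmFit, eBayes with a mean trend) was run on log2(FPKM + 0.1) without covariates (for the 8 genes beside Mgll, standard errors are from the fit over genes of any level, and from tested genes where Ctrl 1 is left out), in place of a count test. limma's voom on the recovered fragments, 2 calls, served as an alternative. Marker lists were compared as 1 value per library by exact two-sided permutation over 70 assignments, using genes above a mean of 0.1 FPKM. Each mouse gave 1 library, and the 2 most alike libraries differed by a chi-square per gene of 4.61, where sampling noise alone gives about 1. Pairs that include Ctrl 1 differed by 62.9 to 109, and all other pairs by at most 43.9.

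The 9 genes and all lists were chosen with earlier results of these data known. The text names the 9 genes, the 3 genes of each list with the largest absolute log2 fold change among those tested, the 5 genes most like Mgll by each measure, and Spdya. Dagla, Abhd4, Pnpla2, Lipe, Ldhc, Piwil1, Hist1h1t, Stra8 and the 2 genes called were named after their values were seen. RefSeq upstream windows were matched by symbol for 8 of the 9 genes, and Abhd12 was the other. Other pseudocounts, filters and scalings, a replicate block, array weights, voom and each library left out were tried. Figures were drawn with matplotlib 3.10.9.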

Additional observations from a re-analysis of the deposited data

Results flagged for a closer look

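In groups of 4 libraries, the highest or lowest was compared with its nearest neighbour over the range of the group (Dixon's ratio). Of 72 groups 7 passed its 95% critical value, where chance gives about 1 in 20, or 3.6. Among the endocannabinoid genes Abhd2 was at 5.54 FPKM in Ctrl 1 and at 4.89 to 4.95 FPKM in the other controls. Ctrl 1 also had 0.464% mitochondrial fragments, against 2.97 to 3.39% in the other controls. Among pathway genes Naaa was at 2.92 FPKM in cKO 3 (others 2.36 to 2.41), Abhd17b at 20.1 FPKM in cKO 1 (others 14.9 to 15.7), and Abhd11 at 13.8 FPKM in Ctrl 2 (others 11.1 to 11.6). In cKO 4 the mean log2 level was 2.35 for peritubular myoid markers (others 1.90 to 1.94) and 1.14 for endothelial markers (others 0.84 to 0.87).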

How the results depend on the processing

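The log2 fold change of Mgll kept its direction in every alternative run, from -1.40 to -1.06 with a library left out and from -1.30 (array weights) to -1.09 (pseudocount 1) otherwise, and its groups did not overlap under either rescaling. In TPM its means were 42.9 in the controls and 19.6 in the cKO libraries. Genes called numbered 0 without a filter on FPKM, 1 after centring on the autosomal median, 1 in TPM and 57 with array weights, in which Ctrl 1 had the lowest weight, 0.161. Array weights gave 1337 genes higher and 1206 lower at an unadjusted p below 0.05, and TPM 360 lower, with 185 lower without overlap. With a library left out, 0 to 3 genes were called, 362 (without cKO 4) to 1181 (without Ctrl 1) were higher and 325 (without cKO 4) to 941 (without Ctrl 4) lower at that p, and 503 to 1011 were higher and 360 to 950 lower without overlap. TPM also moved the share of genes with a positive log2 fold change from 52.0 to 67.4%.

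Of the pathway genes, 2 were called with array weights, Hrasls5 and Ptgds. At an unadjusted p below 0.05, 9 were higher and 2 lower with a mean of 0.1 FPKM as filter, 2 lower without a filter, and 8 higher and 3 lower with array weights. Without overlap, 6 were higher and 2 lower under either looser filter, and 0 were lower in TPM. With a library left out 0 were called, 3 to 7 were higher and 1 to 5 lower at that p, and 3 to 8 were higher and 1 to 3 lower without overlap. Left-out libraries turned the sign of Plcg2 (-0.076 to 0.18), Naaa (-0.032 to 0.18) and Gpr55 (-0.0042 to 0.32). For marker lists they gave 0.40 to 0.58 for macrophages, 0.49 to 0.76 for Leydig cells, 0.34 to 0.71 for endothelium, -0.24 (without cKO 1) to -0.026 (without cKO 4) for pachytene cells, -0.31 (without Ctrl 3) to -0.035 (without Ctrl 2) for spermatids, 0.071 (without Ctrl 3) to 0.22 (without Ctrl 1) for Sertoli cells, 0.10 (without cKO 4) to 0.27 (without Ctrl 3) for myoid cells, and -0.090 (without cKO 4) to 0.0010 (without cKO 1) for spermatogonia. The macrophage p rose to 0.0571 with the median over the list (0.50) and after centring (0.50), and likewise without any 1 of the 4 cKO libraries. Without Ctrl 4 the Leydig and endothelial differences, 0.76 and 0.71, reached an exact permutation p of 0.0286. The causes were not tested.

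Replicate numbers are shared between groups, but the sample titles do not state a pairing, and the main fit did not pair the mice. Same-numbered libraries deviated together with r of 0.0757 to 0.406. This cannot decide whether they are pairs, because differently numbered libraries were not compared in this way. With a replicate block 0 genes were called, 3 pathway genes were lower at an unadjusted p below 0.05, the log2 fold change of Mgll was -1.22 and the macrophage difference 0.48 (exact permutation p = 0.125, the smallest possible).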
